A study of Mus musculus with 18 samples.

Results

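The miR-181 family was followed across mammary tumours of 18 AKXD recombinant inbred mouse strains. Its members here are the 4 rows miR-181a, miR-181b, miR-181c and miR-181d of a table of 583 mature miRNAs, taken by name. All 4 were measured in every library and passed the filter of a mean of at least 10 CPM, as did 281 of the miRNAs in all. AKXD strains descend from AKR/J and DBA/2J mice, and each strain was crossed to FVB/N-TgN(MMTV-PyVT)634Mul mice. Tumours of all groups therefore arose in F1 mice with the polyoma middle T oncogene under the mammary tumour virus promoter, which drives it chiefly in mammary epithelium. The strains were numbers 2, 3, 7, 9, 10, 11, 13, 14, 16, 18, 20, 21, 22, 23, 24, 25, 27 and 28. Each strain's tumour RNA was combined into 1 library, so every strain is a group of 1 and strain, pool and library differences cannot be told apart. Age, sex and the number of tumours in a pool are not given by the labels.

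The miR-181 miRNAs are best known from lymphocytes. In mouse thymocytes miR-181a raises the sensitivity of the T cell receptor by repressing phosphatases, and miR-181 promotes B cell differentiation from mouse blood progenitors. In mammary tumour cells miR-181a is known as a TGF-β-induced miRNA linked to epithelial-mesenchymal transition. miR-181b is made beside miR-181a from the same transcripts. miR-181c has been studied in rat heart, where it acts on a mitochondrial transcript, and miR-181d in human glioma as a repressor of MGMT. A miRNA finds its targets mainly through bases 2 to 8, the seed, so miRNAs that share a seed can share targets.

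The mature sequences show what unites the members and how little separates them; they are the RefSeq sequences on GRCm38.p6, 5′ to 3′, with the seed in capitals, and all 4 member rows were matched.
miR-181a: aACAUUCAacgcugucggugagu
miR-181b: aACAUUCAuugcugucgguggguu
miR-181c: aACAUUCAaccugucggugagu
miR-181d: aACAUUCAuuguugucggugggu
All 4 carry the seed ACAUUCA, and among 1679 mature miRNA names of the RefSeq table no other carries it. Counted from 1 at the 5′ end, with the base of the first-named miRNA first, miR-181a and miR-181b differ by A9U, C10U and A21G, besides the longer end of miR-181b. miR-181b and miR-181d differ by C12U alone, again apart from the end. miR-181c is 22 bases long and lies 1 edit from miR-181a, which has 23. How many mismatches the authors allowed when reads were assigned is not given, so reads could be exchanged within these close pairs, and the values of miR-181c and miR-181d are uncertain to that extent.

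The members come from 6 hairpins at 3 places. miR-181a is read from Mir181a-1 (chr1:137966468-137966490, plus strand) and Mir181a-2 (chr2:38852741-38852763, plus strand), and miR-181b from Mir181b-1 (chr1:137966650-137966673) and Mir181b-2 (chr2:38853845-38853868). The chromosome 1 hairpins lie 97 bases apart in an intron of the noncoding Gm4258 and overlap an exon of the lincRNA A430106G13Rik. The chromosome 2 hairpins lie 1019 bases apart in an intron of Nr6a1, on the strand opposite to that gene. miR-181c (chr8:84178924-84178945) and miR-181d (chr8:84178759-84178781) come from hairpins 85 bases apart on the minus strand, in an intron of Nanos3 on its own strand. The coordinates are those of GRCm38, while the submitters' processing notes name mm9, and the table itself holds none.

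miR-181a was the leading member in every tumour pool. It lay between 3361 CPM in strain 22 and 6824 CPM in strain 9, with a median of 5953 CPM (5677 ± 796 CPM, SD, n = 18), and ranked 24 by mean level among 571 distinct miRNA rows. CPM are reads per 1000000 reads of the library, divided by a further scaling factor for each library. Strain 22 stood below the rest, with the next value, that of strain 23, at 4526 CPM, while 16 strains lay between 4906 CPM and the 6824 CPM of strain 9. miR-181b lay between 835 CPM in strain 22 and 1451 CPM in strain 18, with a median of 1141 CPM (1142 ± 161 CPM, SD, n = 18; rank 60). miR-181c lay between 289 CPM in strain 22 and 807 CPM in strain 9, with a median of 457 CPM (467 ± 126 CPM, SD, n = 18; rank 87). Strain 9 stood above the rest for miR-181c, the next value being 591 CPM in strain 28. miR-181d lay between 171 CPM in strain 7 and 476 CPM in strain 10, with a median of 306 CPM (325 ± 81.8 CPM, SD, n = 18; rank 99). By CPM strain 22 was thus lowest for 3 members but not for miR-181d, where it was at 285 CPM.

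**Figure D1:**
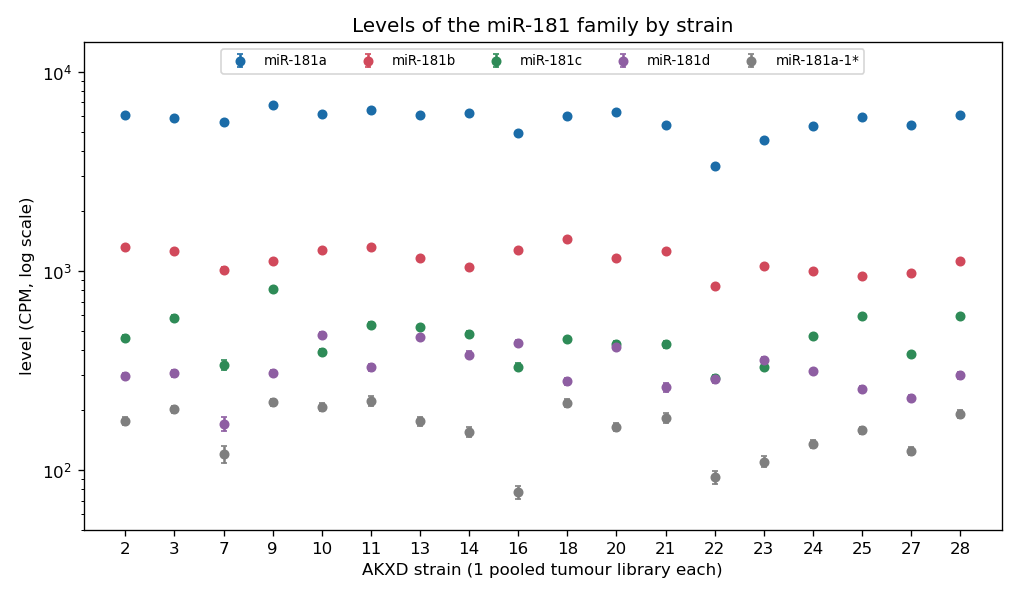
Level of each member and of miR-181a-1*, the other arm of 1 miR-181a hairpin, in CPM (log scale) in the library of each strain; bars are 95% Poisson intervals of the reads, widened by the rounding of the table. miR-181a lies above miR-181b and miR-181b above the others in every strain, while the points of miR-181c and miR-181d cross.

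The order of the members was the same in most libraries. Within a library miR-181a exceeded miR-181b in 18 of 18 strains, and miR-181b exceeded miR-181c in 18 of 18. miR-181c exceeded miR-181d in 15 of 18. The exceptions were strains 10, 16 and 23, where miR-181d was at 476, 434 and 358 CPM and miR-181c at 392, 331 and 329 CPM. The first steps of this order therefore exceeded the spread between strains, and the last one did not. Reads of differing sequence can be ligated and assigned with differing efficiency, which was not tested, and the mature lengths are nearly equal at 22 to 24 bases. miR-181a made up 70.5% to 78.8% of the family's reads, miR-181b 12.2% to 18.3%, miR-181c 4.72% to 8.91% and miR-181d 2.39% to 6.25%. Together the members took 0.542% of all miRNA reads in strain 14 to 1.35% in strain 28, with a median of 0.729%.

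Among strains, many neighbouring levels could not be separated even by read counting. Library totals were 4358204 reads in strain 7 up to 14946065 reads in strain 27, and miR-181d, the least read member, had 699 to 4665 of them. When the strains were ordered by level, the 95% intervals overlapped in 11 of 17 neighbouring pairs for miR-181a, 13 for miR-181b, 11 for miR-181c and 13 for miR-181d. These intervals cover counting error and the rounding of the table only, and with 1 library each no strain's value has a replicate. The order of strains also rests on the scaling. As a plain share of reads miR-181a was lowest in strain 23, at 0.399%, and highest in strain 28, at 1.01%. By that share miR-181b was lowest in strain 14, at 0.0702%, and miR-181c in strain 10, at 0.0279%, so strain 22 was lowest for none of the 3. Strain 28 has the largest scaling factor, 1.67, and strain 14 the smallest, 0.672.

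With the scaling used here, the steadiest members were miR-181a and miR-181b. The SD of log2(CPM + 1) over the 18 strains was 0.23 for miR-181a, the 13th smallest of 281 tested miRNAs, and 0.21 for miR-181b, the 4th smallest. It was 0.37 both for miR-181c and for miR-181d, which ranked 100 and 99. The SD over all tested miRNAs had a median of 0.45 and quartiles of 0.34 and 0.61. Read counting alone gave 0.0063 for miR-181a, 0.014 for miR-181b, 0.023 for miR-181c and 0.027 for miR-181d, so each spread is far wider than counting error. Without strain 22 the SD of miR-181a was 0.16 and that of miR-181b 0.17. With libraries scaled by total counts alone the values were 0.34 and 0.37, while the SD of miR-181d did not exceed 0.39 in any alternative. The gap between miR-181b and miR-181d, and the ranks given, thus hold for the scaling used here.

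**Figure D2:**
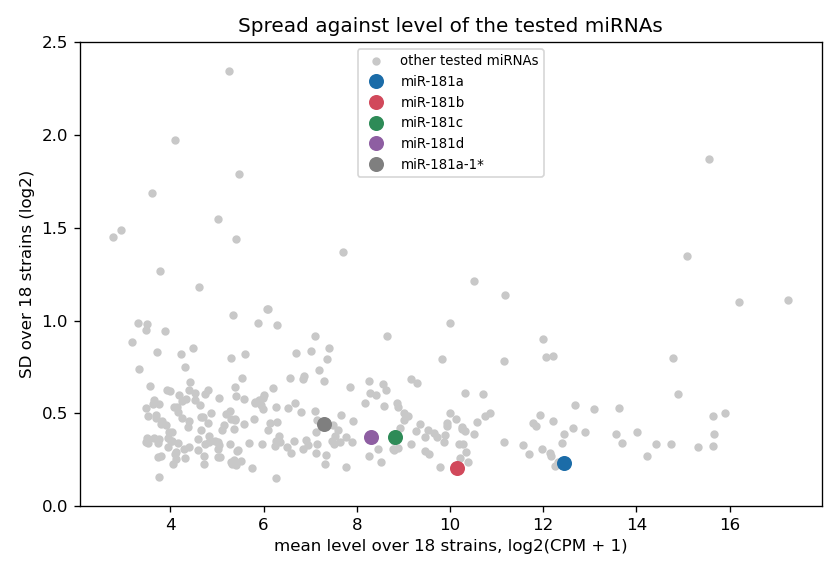
SD over the 18 strains (log2) against mean level, log2(CPM + 1), for the 281 tested miRNAs, with the family members and miR-181a-1* in colour. miR-181a and miR-181b lie at the lower edge of the points, at 0.23 and 0.21, and miR-181c and miR-181d lie at 0.37, below the median of 0.45.

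The ratio of 2 members within a library does not depend on how libraries are scaled. The reads of miR-181a were 3.86 times those of miR-181b in strain 16, 5.03 times at the median and 6.28 times in strain 25. On the log2 scale this ratio was 2.31 ± 0.21 (SD, n = 18), and only 0.137% of all pairs of tested miRNAs had a steadier one; the median SD over all pairs was 0.68. miR-181c to miR-181a, which are 1 edit apart, gave -3.63 ± 0.26, with 0.63% of all pairs steadier. miR-181d to miR-181b, which differ at a single base, gave -1.84 ± 0.36, with 5.21% of pairs steadier. By contrast, miR-181d to miR-181c, from hairpins 85 bases apart, gave -0.52 ± 0.51, with 24.3% of pairs steadier. miR-181d was at 0.379 times miR-181c in strain 9, 0.631 times at the median and 1.31 times in strain 16, a range of 3.46-fold, against 1.62-fold for miR-181a to miR-181b. A pair of miRNAs that each vary little has a steady ratio also when they do not vary together, so these shares describe the pairs and do not test them.

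**Figure D3:**
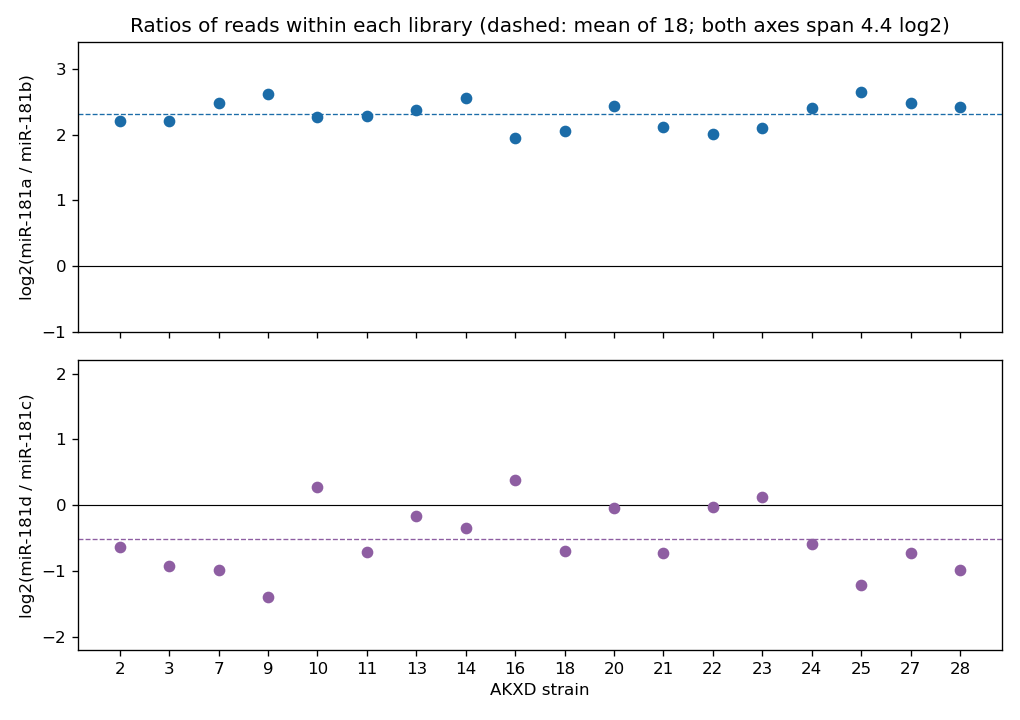
Log2 ratio of reads within the library of each strain, miR-181a to miR-181b above and miR-181d to miR-181c below, on axes of equal span; dashed lines are means over the 18 strains and solid lines mark equal reads. The upper points stay between 1.95 and 2.65, while the lower ones spread between -1.40 and 0.39 and pass 0 in strains 10, 16 and 23.

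The other arms of the miR-181a hairpins tell its places of origin apart, which the mature miR-181a does not. The hairpins are shown for that reason, with both mature arms in capitals: Mir181a-1 at chr1:137966455-137966541 and Mir181a-2 at chr2:38852735-38852810, plus strand, RefSeq, GRCm38.p6.
Mir181a-1: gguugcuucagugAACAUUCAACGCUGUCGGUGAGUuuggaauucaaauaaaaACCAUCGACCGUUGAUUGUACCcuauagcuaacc
Mir181a-2: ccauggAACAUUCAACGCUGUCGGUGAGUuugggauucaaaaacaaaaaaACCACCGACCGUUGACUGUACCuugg
The 3′ arms, listed as miR-181a-1* and miR-181a-2*, differ by U5C and U16C. miR-181a-1* lay between 77.2 CPM in strain 16 and 222 CPM in strain 11, with a median of 170 CPM (163 ± 44.7 CPM, SD, n = 18). miR-181a-2* had at most 15 reads in any library and none in strains 14 and 16, where a count of 0 allows up to 3 reads by the one-sided 95% limit. Over the 18 libraries the chromosome 1 arm had 30661 reads and the chromosome 2 arm 87, a ratio of 352 (95% Poisson interval 286 to 440.0). That interval covers only the counting error of the summed chromosome 2 arm and not the differences between strains. Strain 2 had 2212 and 15 reads of the arms, and strain 25 had 2290 and 2. How stable each arm is was not measured, so the ratio of 352 is not the ratio of the transcripts. Within a library miR-181a-1* was at 0.0157 (strain 16) to 0.0361 (strain 18) of the reads of miR-181a.

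Levels were then compared across strains, to see which members were high and low in the same tumours. The measure was Spearman's rho over the 18 strains for each of 39340 pairs of tested miRNAs, with permutation p-values adjusted by Benjamini-Hochberg over all of them. A pair was called at an adjusted p under 0.05. Of the 6 pairs of members, 0 were called, against 2.65% of all pairs. With only 6 pairs, 0 calls cannot be told apart from that share, and the smallest absolute rho called was 0.713. At an unadjusted p under 0.05 there was 1 of the 6, against 19.6% of all pairs. With Pearson's r in place of rho, 1 of the 6 was called, against 6.21% of all pairs. The median rho was 0.32 for the 6 pairs and 0.01 for all pairs.

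miR-181a and miR-181c came closest. Their rho was 0.65 (permutation p = 0.00466, adjusted p = 0.0841) and r was 0.73 (permutation p = 0.00034), or 0.67 without strains 22 and 23, which lie farthest from the median of miR-181a. By CPM strain 9 was highest and strain 22 lowest for both. Under upper-quartile scaling rho was 0.75 (adjusted p = 0.0267) and the pair was called, as were 3.44% of all pairs. For miR-181a and miR-181b, made from the same pairs of neighbouring hairpins, rho was 0.42 (permutation p = 0.0841, adjusted p = 0.328) and r 0.54 (permutation p = 0.0186). That r rests on strains 22 and 23, without which it was 0.16. For miR-181c and miR-181d, also from neighbouring hairpins, rho was 0.04 (permutation p = 0.889, adjusted p = 0.957) and r 0.05 (permutation p = 0.851). Strain 7 was low for both, while strain 9 was high for miR-181c alone and strains 10 and 16 for miR-181d alone. The remaining rho were 0.31 for miR-181a with miR-181d (adjusted p = 0.513), 0.34 for miR-181b with miR-181d (adjusted p = 0.46) and 0.11 for miR-181b with miR-181c (adjusted p = 0.847). These values rest on few libraries. With 1 strain left out, rho of miR-181a with miR-181d was as low as 0.11 (without strain 18), and that of miR-181b with miR-181d as low as 0.11 (without strain 27). miR-181a with miR-181d turned to -0.04 without strains 10, 13, 14 and 20, and to -0.08 once the main axis of difference between libraries (their first principal component) was taken out. miR-181b with miR-181c reached 0.70 with total counts alone, where 18.1% of all pairs were called.

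**Figure D4:**
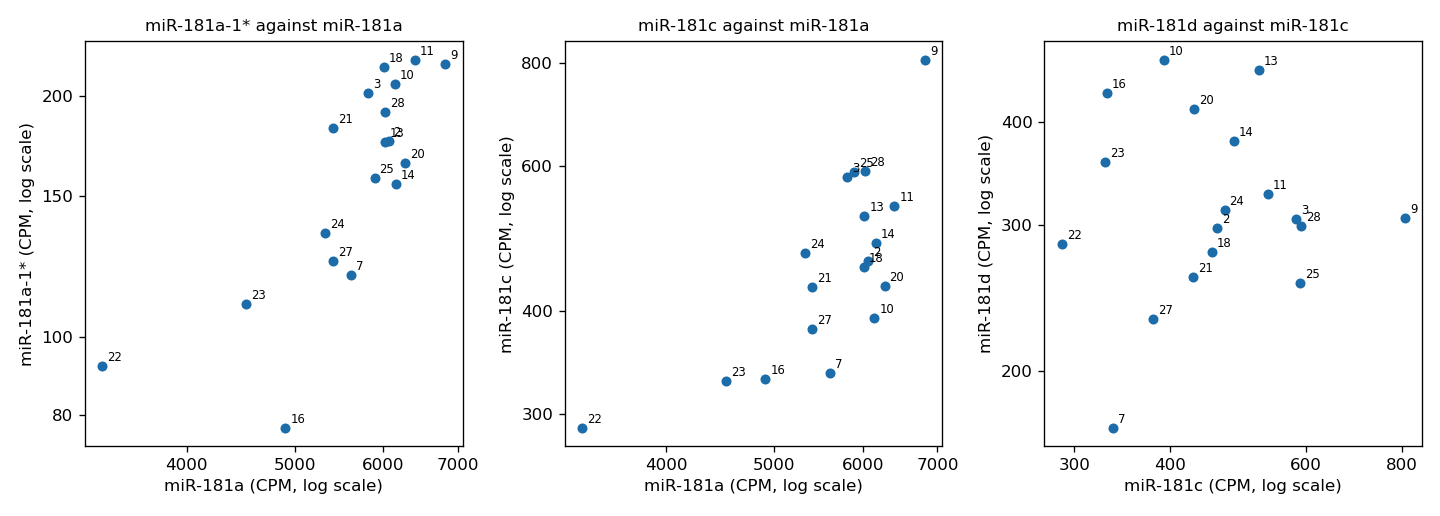
Levels (CPM, log scales) in the 18 libraries, labelled by strain: miR-181a-1* against miR-181a, miR-181c against miR-181a, and miR-181d against miR-181c. Points of the first 2 panels run from lower left to upper right (rho 0.74 and 0.65), and rho is 0.04 in the third.

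The chromosome 1 arm was called with its partner. For miR-181a with miR-181a-1* rho was 0.74 (permutation p = 0.000672, adjusted p = 0.0372) and r 0.78 (permutation p = 0.00017), or 0.80 without strains 22 and 23. The call was kept in 15 of 30 alternatives. It was lost under upper-quartile scaling (rho 0.69, adjusted p = 0.052), with no filter on low values (rho 0.74, adjusted p = 0.0707) and with identical rows all counted (rho 0.70, adjusted p = 0.0551). It was also lost without strains 10, 13, 14 and 20 (rho 0.82, adjusted p = 0.121), without these and strain 28 (rho 0.87, adjusted p = 0.0952), and when any of 10 single strains was left out, where rho stayed between 0.65 and 0.74. miR-181a-1* with miR-181c gave a rho of 0.67 (adjusted p = 0.0698), with miR-181b 0.61 (adjusted p = 0.111) and with miR-181d 0.08 (adjusted p = 0.894).

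**Figure D5:**
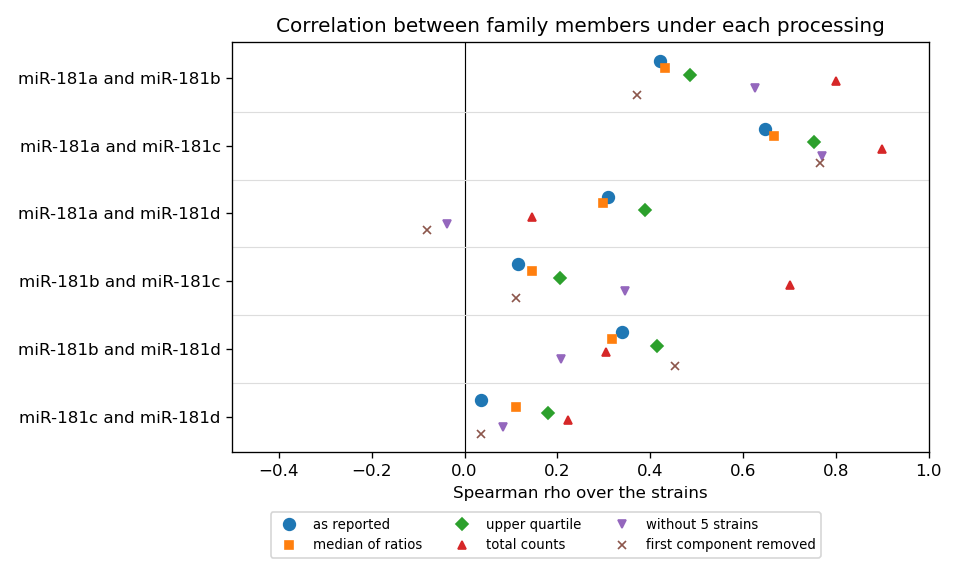
Spearman's rho over the strains for each pair of members as reported, under 3 other scalings, without strains 10, 13, 14, 20 and 28, and with the first principal component removed. miR-181a with miR-181c lies at 0.65 or above in all 6 settings shown, and miR-181c with miR-181d at 0.22 or below.

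Libraries of strains 10, 13, 14 and 20 stood apart from the rest. Their scores on the first principal component were the 4 lowest, and that component held 27.6% of the variance. By CPM all 4 were among the 6 highest for miR-181d, at 476, 463, 380 and 415 CPM, against 171 to 434 CPM in the other 14 strains. As a plain share of reads miR-181d was at 0.0339%, 0.0357%, 0.0255% and 0.0322% in them. The other 14 lay at 0.0160% to 0.0520%, and of these only strains 7 and 27 were below strain 14. For miR-181a 3 of the 4 were among the 6 highest by CPM, and for miR-181b and miR-181c 1 each. As a plain share of reads the 4 were instead low for miR-181a, at 0.437%, 0.464%, 0.414% and 0.487%. Strains 22 and 23 were at 0.426% and 0.399%, and all others at 0.528% (strain 7) or above. The placing of these 4 strains thus holds for the scaling used here. The component was drawn from all tested miRNAs, so others can rank these 4 strains alike, and how many do was not counted. The part of these strains in the miR-181d values was not tested. Without these strains and strain 28 the SD of miR-181d was 0.30, and rho of miR-181c with miR-181d was 0.08.

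Each member was also set against the 280 other tested miRNAs. Called pairs made up 1.07% for miR-181a and for miR-181d, and 0 of 280 for miR-181b and miR-181c, each below the 2.65% of all pairs. Those of miR-181a were its partner arm, miR-503, a miRNA of the cell-cycle-linked miR-322/miR-503 cluster (rho -0.73, adjusted p = 0.0425; r -0.54), and miR-23a (rho -0.72, adjusted p = 0.045; r -0.74). Those of miR-181d were miR-421 (rho 0.75, adjusted p = 0.0335; r 0.67), miR-652 (rho -0.74, adjusted p = 0.0377; r -0.55) and miR-92b, which shares its seed region with miR-92a of the miR-17-92 cluster (rho -0.72, adjusted p = 0.0437; r -0.56). All 4 negative relations turned positive with total counts alone, and none of the 4 was called under that scaling, median-of-ratios scaling or upper-quartile scaling. With median-of-ratios scaling rho was -0.53 for miR-503 (adjusted p = 0.177), -0.65 for miR-23a (adjusted p = 0.0786), -0.66 for miR-652 (adjusted p = 0.0689) and -0.70 for miR-92b (adjusted p = 0.0507). For miR-181a with miR-503 rho was -0.40 without strain 16 and -0.40 without strain 22. The calls were kept in 6 of 29 alternatives for miR-503, 5 of 30 for miR-23a, 10 of 30 for miR-652 and 6 of 29 for miR-92b. Each count, here and for miR-421 below, includes the 2 other pseudocounts, which cannot change ranks and so could not lose a call. The positive relation of miR-181d with miR-421 was called in 13 of 29. Its call was lost under upper-quartile scaling (rho 0.66, adjusted p = 0.0717), with total counts alone (rho 0.55, adjusted p = 0.0812) and with no filter (adjusted p = 0.0649). It was also lost with the first component removed (rho 0.63, adjusted p = 0.166) and without strains 10, 13, 14 and 20 (rho 0.56, adjusted p = 0.395). Without these and strain 28 it was lost too (rho 0.49, adjusted p = 0.514). Leaving out strain 3, 9, 10, 11, 13, 14, 18, 20, 23 or 24 alone likewise lost the call, with rho at 0.70 or above. The miRNAs nearest in pattern to the other members were not called: miR-106b* (rho 0.62), miR-345-3p (0.59) and miR-93 (0.57) for miR-181b, and miR-30e (0.64), miR-10a (0.62) and miR-146b* (0.61) for miR-181c. Most opposite were miR-214 (rho -0.61), miR-322 (-0.54) and miR-26b (-0.52) for miR-181b, and miR-130b (-0.68), miR-720 (-0.64) and miR-1274a (-0.64) for miR-181c. For miR-181a the next were miR-330 (rho 0.71), miR-30e* (0.66) and miR-183 (0.62) on the high side and miR-30b (-0.70) on the low side, and for miR-181d miR-191 (0.71), miR-217 (0.66) and miR-24-2* (-0.71).

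Hairpins of miR-23a, miR-27a and miR-24 lie near those of miR-181c and miR-181d, beginning 29556 bases away on the opposite strand. miR-181c had a rho of -0.39 with miR-23a, -0.27 with miR-27a and 0.46 with miR-24 (adjusted p = 0.373, 0.584 and 0.265). miR-181d had a rho of -0.30 with miR-23a, -0.27 with miR-27a and 0.47 with miR-24 (adjusted p = 0.52, 0.581 and 0.262). miR-24 can also come from a hairpin on chromosome 13, but miR-24-2* comes from the one nearby, and its rho with miR-181d was -0.71 (adjusted p = 0.0511) and with miR-181c 0.17 (adjusted p = 0.749). No pair of miR-181c or miR-181d with these neighbours was called. miR-181d with miR-24-2* lay near the threshold: it was called among miRNAs averaging at least 100 CPM (adjusted p = 0.0352), with Pearson's r (r -0.71, adjusted p = 0.0251) and without strain 7, 9, 16, 22 or 28. It was not called in the other 23 of 30 alternatives, and with total counts alone its rho was 0.13.

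Since miR-181 miRNAs are abundant in lymphocytes, the members were set against miRNAs that mark cell types a tumour pool can hold. In bulk RNA, fewer cells of a type and less RNA per cell cannot be told apart. Of 24 pairs of a member with a leukocyte miRNA (miR-142-3p, miR-142-5p, miR-150, miR-155, miR-223 and miR-146a) 0 were called, and the median rho was -0.12. The most negative was miR-181a with miR-223, a myeloid miRNA (rho -0.58, adjusted p = 0.135), and the most positive miR-181c with miR-142-3p (rho 0.44). The leukocyte miRNAs summed to 2281 CPM in strain 10, the lowest, and 19560 CPM in strain 27, the highest, where miR-181a was at 6146 and 5408 CPM. On average most of this sum was miR-142-3p, with a mean of 4992 CPM, followed by miR-146a with 1033 CPM. The epithelial miR-200 list, all 5 of whose members were detected at 28488 to 54671 CPM in sum, gave 0 calls in 20 pairs (median rho 0.24). Calls were also 0 in 16 pairs with stromal (4 of 5 miRNAs passed the filter), 16 with skeletal muscle, 8 with endothelial and 12 with erythroid miRNAs, with medians of -0.16, -0.04, -0.02 and -0.16. These 0 calls in 96 pairs stand against 2.65% of all pairs. At an unadjusted p under 0.05 there were 2 leukocyte, 3 miR-200, 3 stromal and 1 endothelial pairs, or 9.38% of the 96, against 19.6% of all pairs.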

How the data were processed

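Small RNA of pooled mammary tumours was sequenced on an Illumina Genome Analyzer IIx, 1 library per strain, per the labels. The authors deposited 1 table of log2 values for 583 mature miRNAs and 18 libraries, with 2 decimals. Per the submitters' processing notes BWA and mm9 were involved, with no role or version; the mismatches allowed, the miRNA annotation and the counting tool are not given in the sources. Taken out of the log, the deposited log2 values are whole reads multiplied by 1 constant for each library (100% of 3818 values of up to 50 reads, within 0.006 log2; constants 0.999 to 1.39). A row without reads is written as 0.

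Values were turned back to reads. Of 20 rows in 8 sets of identical values, each set was counted once, leaving 571. CPM were scaled with TMM factors (trimmed mean of M values, trimming 30% by log ratio and 5% by abundance; 0.672 to 1.67). The 281 rows averaging 10 CPM or more were tested as log2(CPM + 1). Because the unit is log2 and not counts, this planned fallback was used in place of a count model. Two-sided p-values of rho come from 1000000 permutations and the unadjusted ones printed for Pearson's r from 100000. Calls and adjusted p-values with Pearson's r over all pairs rest on fewer permutations. Poisson intervals (95%) cover counting error and the rounding of 0.005 log2; PCR copies are not told apart. p-values refer to the correlation of 2 miRNAs over these libraries, whose differences may be technical.

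The members, the lists and the strains left out were chosen with earlier results of these data known. Named miRNAs are the members, other-arm rows, the 3 highest and 3 lowest in rho for each member, miR-23a, miR-27a, miR-24 and marker miRNAs; miR-24-2* beside miR-181c was added after its values were seen. Alternatives were 3 other scalings, 2 pseudocounts, 2 filters, each strain left out, 4 or 5 strains left out, Pearson's r, removal of the first principal component and identical rows all counted. The 2 pseudocounts leave ranks as they are, so every result on rho is the same under them by construction. Python 3.11.15 with numpy 2.4.6, pandas 2.3.3, scipy 1.17.1 and matplotlib 3.10.9 was used.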

Additional observations from a re-analysis of the deposited data

How the results depend on the processing

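No paired analysis was possible because each strain has 1 library. Member levels and within-library ratios moved by less than their SD over strains in every alternative run. The count of called member pairs, 0 as reported, was 1 under upper-quartile scaling, 1 with Pearson's r, 1 with identical rows all counted, 3 with total counts alone, and 0 to 1 with a strain left out (1 without strain 16, 18, 22 or 28); it stayed 0 in the other alternatives, among them those without 4 or 5 strains, where only 28 and 11 of all pairs were called. The single call was miR-181a with miR-181c, whose rho stayed between 0.58 and 0.90 in all 30 alternatives; total counts alone added miR-181a with miR-181b (0.80) and miR-181b with miR-181c (0.70). With total counts alone 1 of 24 leukocyte, 7 of 20 miR-200, 2 of 16 stromal and 1 of 8 endothelial pairs were called, against 18.1% of all pairs, and with a strain left out 0 to 1 miR-200 call (1 without strain 16). With total counts alone the Spearman correlation of miR-181a with miR-23a turned to 0.37 and with miR-503 to 0.27, and of miR-181d with miR-652 to 0.14 and with miR-92b to 0.13; the cause was not tested. The SD of miR-181a was 0.28 under upper-quartile scaling, 0.34 with total counts alone, 0.28 without strains 10, 13, 14, 20 and 28, and 0.16 to 0.26 with a strain left out. That of miR-181b was 0.37 with total counts alone and 0.17 to 0.21 with a strain left out. That of miR-181c was 0.52 with total counts alone and 0.44 without the 5 strains. That of miR-181d was 0.30 without them and at most 0.39 in any alternative. miR-181a with miR-330 and miR-181d with miR-191, not called as reported, stayed so in 20 of 29 and 22 of 30 alternatives. The relations outside the family were added to the alternatives after the data had been seen. Depth limited neighbouring strains and miR-181a-2*, which had at most 15 reads.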

Other observations

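The ratio of miR-181a to miR-181b and that of miR-181c to miR-181d tended to be high in the same libraries. Both ratios are free of the scaling of libraries and share no member. Over the 18 strains Pearson's r between the log2 ratios was 0.56 and Spearman's rho 0.59. Strains 9 and 25 were high in both, and strain 16 was lowest in both. The first ratio lies farthest from its median in strain 16, followed by strains 22 and 25 at equal distance. Without strains 16 and 22 r was 0.38, without strains 16 and 25 it was 0.37, and without strains 10, 13, 14 and 20 it was 0.80. For the other ways of pairing the members r was 0.04 (miR-181a to miR-181c with miR-181b to miR-181d) and -0.36 (miR-181a to miR-181d with miR-181b to miR-181c). These 3 values were computed after the data had been seen and are given as a description, with no test. They are built from the same members, and by algebra the covariance behind any of them follows from the others. The other ways of pairing are therefore not an independent comparison for the r of 0.56. In sequence miR-181a is close to miR-181c and miR-181b to miR-181d, and the part of shared reads in these values was not tested.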
